A study of Homo sapiens with 3 samples.

Results

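The 12 regions described here are the flanks of human rRNA bases that carry a base modification, taken as all positions within 25 nt of each modified base. The modified bases are m1acp3Ψ1248, ac4C1337, m7G1639, m6A1832, ac4C1842, m62A1850 and m62A1851 on 18S rRNA, and m1A1322, m5C3782, m6A4220, m5C4447 and m3U4530 on 28S rRNA. They were chosen by position, not by their depth. Together the flanks hold 471 of the 7218 rRNA positions measured, 216 of them on 18S and 255 on 28S. The flanks of m6A1832, ac4C1842, m62A1850 and m62A1851 overlap one another and lie in the last 40 nt of 18S rRNA, so these 4 sites share reads and are not independent.

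The study used eCLIP, in which UV light links a protein to the RNA it touches, the protein is pulled down, and the linked RNA is sequenced. Both eCLIP libraries, replicates 1 and 2, were anti-HA immunoprecipitates from 293T cells that stably express METTL5-HA. The 1 Input library is labelled wild type and is RNA from 293T cells without the pull-down. The 293T line is an established human line derived from embryonic kidney. All 3 libraries came from cells given 254 nm UV light at 400 mJ/cm2 and from lysates cut with limited RNase I. No immunoprecipitate from cells without the tag was analysed here, and whether the stable cells are 1 clone is not stated in the sources used here. The table holds rRNA alone, so the cell type could not be checked against marker genes.

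Ribosomal RNA is modified by dedicated enzymes while the ribosome is assembled, and METTL5, with its partner TRMT112, makes the m6A near the 3′ end of 18S rRNA. Some marks sit on the edge of the base that pairs with another base: m1A (N1-methyladenosine), m3U (N3-methyluridine), m62A (N6,N6-dimethyladenosine) and m1acp3Ψ (a hypermodified pseudouridine). Such marks block pairing and are known to stop reverse transcriptase or make it misread. The other marks, m6A (N6-methyladenosine), m7G (N7-methylguanosine), ac4C (N4-acetylcytidine) and m5C (5-methylcytidine), leave pairing possible. The comparison was between 5 sites with marks that block pairing and 7 sites with other marks, in each library by itself.

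Depth is the number of reads covering a position, as the authors deposited it. The step at a site is the log2 ratio of mean depth over the 10 nt on the 3′ side to mean depth over the 10 nt on the 5′ side, with 1 read added to each mean. A positive step means more reads on the 3′ side. Summed depth was 17574237 and 6930845 in the eCLIP libraries and 42783485 in Input, and no position exceeded 7986 in any library. Depth was 4000 or more at 27.3% and 3.38% of positions in the eCLIP libraries and at 88.7% in Input, and whether an upper limit on depth narrows the steps of Input was not tested. Depth rises were best matched by depth falls 75 nt further on in every library (r from 0.241 on 28S in Input to 0.996 on 18S in eCLIP replicate 2, across positions), so a read was taken to span 75 nt. A step over 10 nt is therefore made by reads that start or end beside the site. The flanks made up 6.53% of positions. Their share of all depth was 3.28% and 2.99% in the eCLIP libraries and 5.66% in Input.

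The depth step did not separate the 5 blocking marks as a class from the other 7 in any library. The blocking marks held both the largest upward steps, at m1acp3Ψ1248 and m3U4530, and, in Input, the largest downward steps, at the m62A pair. Their median step was -0.26 in eCLIP replicate 1, with a range of -1.87 to 1.72, against -0.30 for the other marks, with a range of -2.33 to -0.09. In eCLIP replicate 2 the blocking marks had a median of -0.47 and the other marks one of -0.20. In Input the medians were 0.06 for blocking marks and -0.02 for the others. The difference of medians, blocking minus other, was thus 0.04, -0.27 and 0.08 log2 units, with no constant sign at this setting. The value of eCLIP replicate 2 includes the m62A pair, where its depth was at most 3 reads on both sides, and became 1.28 without these 2 sites, an alternative added after the values were seen. In eCLIP replicate 1 and Input no site was at this floor, so all 5 and 7 sites and their values stayed. The difference was then above 0 in every library, but over unlike sets of sites. Several other settings, given at the end, also put it above 0 in every library, and others did not. Class medians over 5 and 7 sites that differ in position and depth are descriptions, and no test was made of them. Over all 18S and 28S positions with complete flanks the median step was within 0.01 of 0 in each library.

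**Figure D1:**
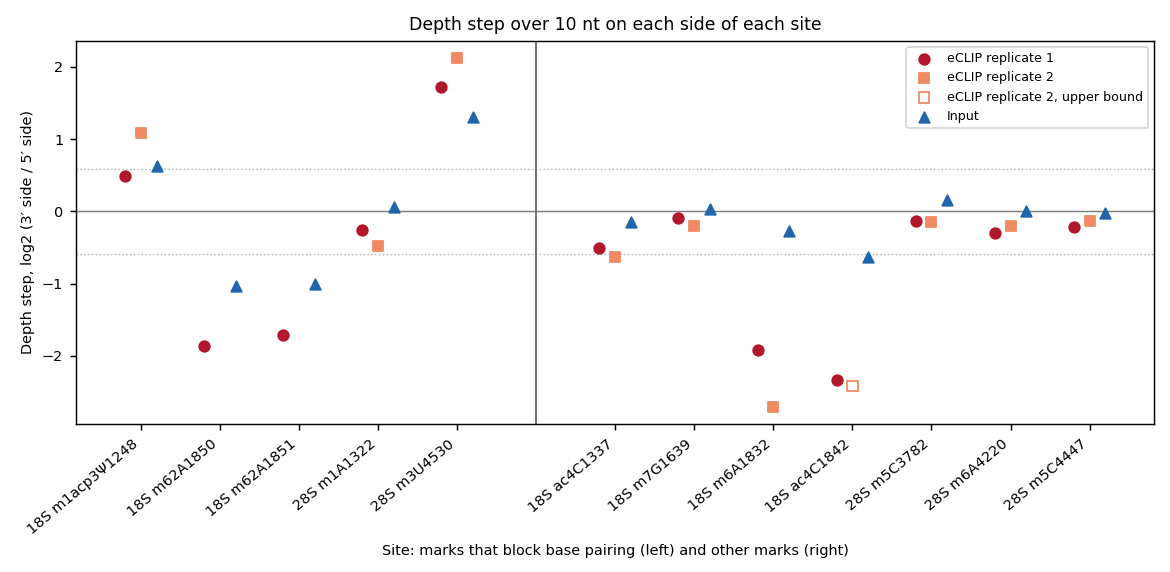
Depth step (log2 of mean depth over 10 nt on the 3′ side to that on the 5′ side) at each of the 12 sites, with marks that block base pairing left and other marks right; red circles and orange squares are the eCLIP libraries and blue triangles the Input, dotted lines mark 1.5-fold, and the open square is an upper bound against a floor of 3 reads. The library eCLIP replicate 2 has no point at the m62A pair, where both sides were at or below the floor. In all libraries m1acp3Ψ1248 and m3U4530 lie above the 7 other marks.

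The mark m3U4530, a methylated uridine of 28S rRNA, had the steepest upward step of the 12 sites in every library. Mean depth was 333.3 reads on its 3′ side against 100.2 on its 5′ side in eCLIP replicate 1, and 152.2 against 34.2 in eCLIP replicate 2. In Input it was 4837.2 against 1959.4 reads. The 3′ side was higher by 3.33-fold, 4.45-fold and 2.47-fold, in the same library order, and the steps of 1.72, 2.12 and 1.30 exceeded those of 99.8%, 99.9% and 99.8% of 28S positions. The direction was thus common to both eCLIP libraries and Input. In Input, the climb ran along both sides of the base, and its largest one-base gain lay 3 nt 5′ of it. Depth was 2724 at position 4527 against 1820 one base before, and 3281 at position 4528. In the eCLIP libraries the largest one-base gain of the flank in reads lay 3′ of the base, at position 4535, with 310 against 252 reads in replicate 1 and 148 against 122 in replicate 2.

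The mark m1acp3Ψ1248 lies on 18S rRNA at the decoding side of the small subunit, where EMG1 and then TSR3 act in its making. Mean depth on its 3′ and 5′ sides was 361.2 against 256.2 reads in eCLIP replicate 1, 109.9 against 51.4 in eCLIP replicate 2, and 4040.6 against 2611.5 in Input. These are steps of 0.49, 1.08 and 0.63, above those of 91.3%, 97.2% and 98.2% of 18S positions. All 3 libraries again had more reads on the 3′ side. The flank also holds the 5′ edge of a block of eCLIP depth: at position 1269, 21 nt past the base, depth was 1439 against 534 reads one base before in eCLIP replicate 1 and 710 against 191 in eCLIP replicate 2. In Input depth was 6530 against 6270 reads, so that edge was far shallower there. It lies outside the 10 nt over which the step was taken.

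The mark m1A1322 of 28S rRNA, made by RRP8 (nucleomethylin), had steps of -0.26 and -0.47 in the eCLIP libraries and of 0.06 in Input. Mean depth on its 3′ side was 1783.6 and 979.2 reads in the eCLIP libraries, against 2137.8 and 1360.4 on its 5′ side. In Input it was 5001.1 against 4798.9 reads. The sign therefore differed between the eCLIP libraries and Input. The depth at and beside the base was lower than on either side in the eCLIP libraries: it was 1584 reads at the base in replicate 1 and 859 in replicate 2. In replicate 1 the largest one-base loss of the flank lay one base 5′ of the mark, with 1737 against 1995 reads, and in replicate 2 at the mark itself, with 859 against 1102.

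The m62A pair, made by DIMT1 in the loop of the last 18S hairpin, had downward steps. At m62A1850 mean depth was 13.8 reads on the 3′ side against 53.0 on the 5′ side in eCLIP replicate 1, and 720.6 against 1480.7 in Input. At m62A1851 it was 13.1 against 45.3 reads in eCLIP replicate 1, and 693.0 against 1398.2 in Input. The 3′ side was lower by 3.84-fold and 3.46-fold in eCLIP replicate 1 and by 2.05-fold and 2.02-fold in Input. In eCLIP replicate 2 the mean was 0 reads on the 3′ side of both bases and at most 0.6 on the 5′ side, too few for a fold. Both bases lie within a read span of the end of 18S rRNA, so nearness to the end and the mark cannot be told apart here.

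Of the other marks, the 2 beside the 18S 3′ end had the steepest downward steps. At m6A1832, the base METTL5 methylates, mean depth was 144.1 reads on the 3′ side against 546 on the 5′ side in eCLIP replicate 1 and 11.4 against 79.8 in eCLIP replicate 2. In Input it was 1869.1 against 2247 reads. The 3′ side was lower by 3.79-fold and 7.0-fold in the eCLIP libraries and by 1.20-fold in Input. At ac4C1842, one of the acetylated cytidines made by NAT10, mean depth was 32.4 against 166.7 reads in eCLIP replicate 1, 0 against 16 in eCLIP replicate 2 and 1228.1 against 1911.4 in Input. The 3′ side was lower by 5.15-fold in eCLIP replicate 1, at least 5.33-fold in eCLIP replicate 2 (against a floor of 3 reads in a library) and 1.56-fold in Input. Depth ran down along all 4 overlapping flanks in these libraries, with no one-base gain at any position. In Input the largest one-base loss beside ac4C1842 and the m62A pair was at position 1849, with 982 against 1269 reads one base before.

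The other 5 marks lie away from rRNA ends, and 4 of them had shallow steps. At ac4C1337, the second NAT10 product, mean depth was 1103.2 reads on the 3′ side against 1564.5 on the 5′ side in eCLIP replicate 1, 457.2 against 710.2 in eCLIP replicate 2, and 6300.9 against 6955 in Input. Its steps of -0.50, -0.63 and -0.14 take in the 3′ edge of the block of eCLIP depth named above: at position 1344 depth was 554 against 1456 reads one base before in replicate 1 and 135 against 657 in replicate 2. The steps at m7G1639 (made by BUD23), m5C3782 (NSUN5), m6A4220 (ZCCHC4) and m5C4447 (NOP2) lay between -0.30 and -0.09 in the eCLIP libraries and between -0.02 and 0.16 in Input. Around m5C3782 few reads were left in the eCLIP libraries, with 185 and 35 at the base, against 5443 in Input. Around m6A4220 depth was 4408 and 1397 reads at the base in the eCLIP libraries, against 6886 in Input.

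**Figure D2:**
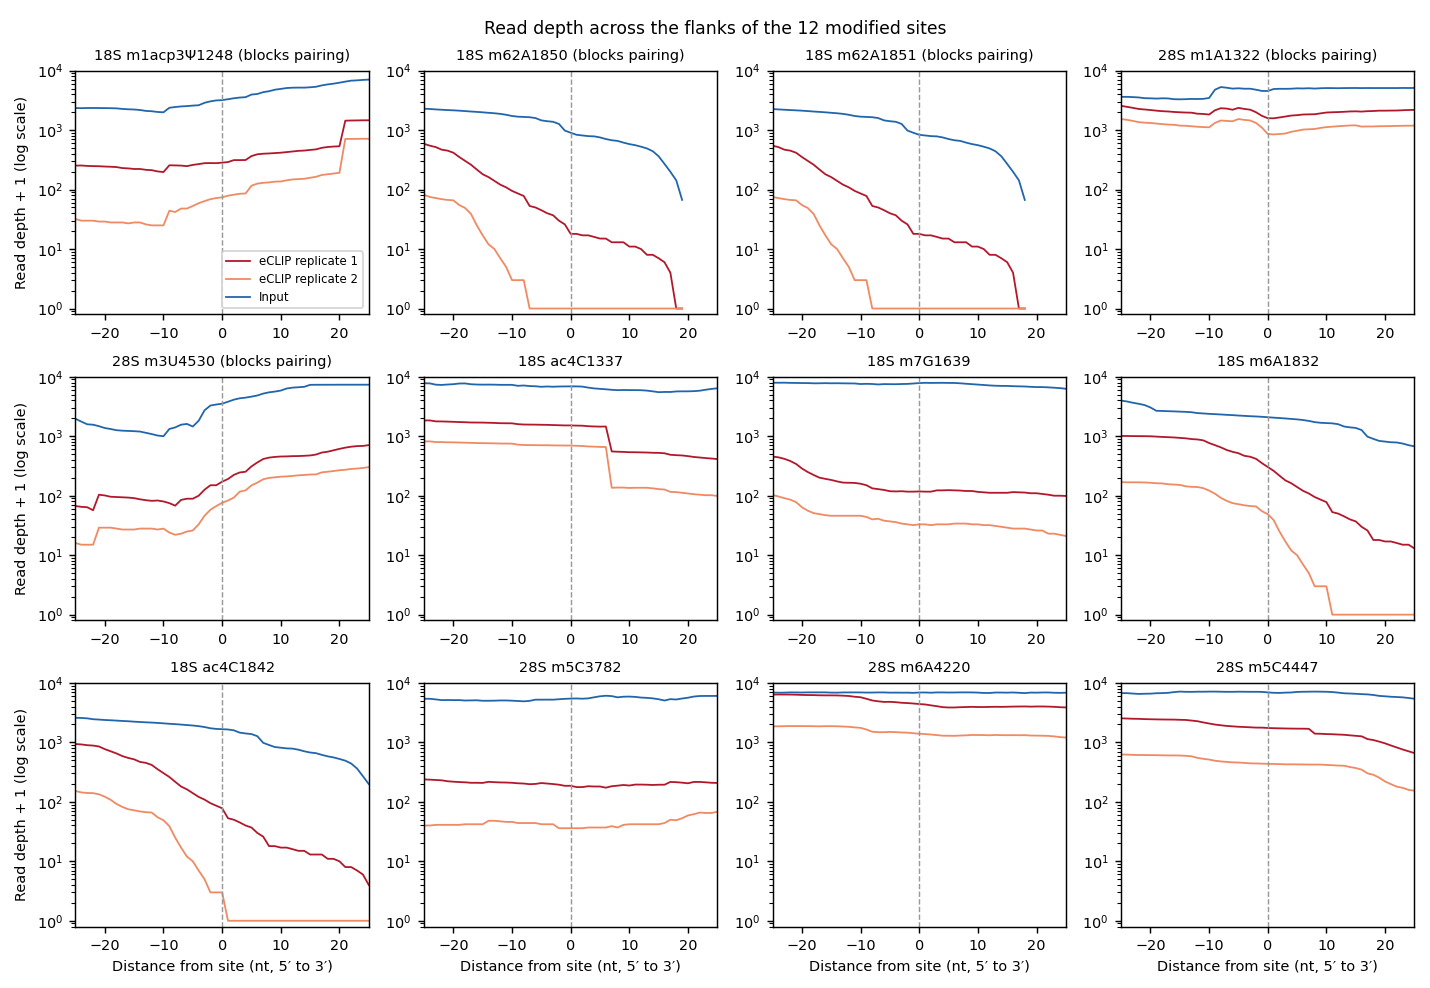
Depth at each position within 25 nt of each of the 12 sites, 1 panel a site, with distance from the modified base in nt on the x axis (negative is 5′) and depth plus 1 read on a log axis; red and orange lines are the eCLIP libraries, blue lines the Input. Depth climbs through m3U4530 and m1acp3Ψ1248 in all libraries and declines along the 4 flanks at the 18S 3′ end.

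Steps of 1.5-fold or more were counted at the sites beside their share of all 18S and 28S positions, leaving uncounted, at sites and positions alike, steps with a mean of 3 reads or fewer on both sides. An upward step of this size was found at 1 of 12 sites in eCLIP replicate 1 (4.67% of all positions), at 2 in replicate 2 (6.13%) and at 2 in Input (1.39%), and each of these sites was m3U4530 or m1acp3Ψ1248. A downward step of this size was found at 4 sites in eCLIP replicate 1 (4.03% of all positions), at 3 in replicate 2 (5.54%) and at 3 in Input (1.19%). Among those, every site but ac4C1337 in eCLIP replicate 2 was one of the 4 overlapping sites of the 18S 3′ end. The upward steps thus came from these 2 blocking marks, and the downward ones from both classes. Counts this small are not read as a difference between the classes.

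At single-base scale, the blocking bases did not share a dip below both neighbours. In Input, depth at all 5 was slightly below the mean of its neighbours, by a log2 ratio of -0.057 to -0.010. At the 7 other marks this ratio was -0.002 to 0.008. The classes overlapped in the eCLIP libraries, where 2 of the 5 blocking bases lay below all other marks in each. No test was made of these small differences. In Input, m1A1322 was the only one of the 5 with fewer reads than both neighbours, at 4549 against 4559 one base before and 4903 one base after. The other 4 lay on slopes, with a depth between those of their neighbours: 3524 at m3U4530, between 3414 and 3802, and 3189 at m1acp3Ψ1248, between 3157 and 3306. The m62A bases lay on a downward slope, with 901 and 833 reads. In the eCLIP libraries m1A1322 lay between its neighbours, with 1584 reads against 1737 before and 1578 after in replicate 1, and 859 against 1102 and 845 in replicate 2.

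**Figure D3:**
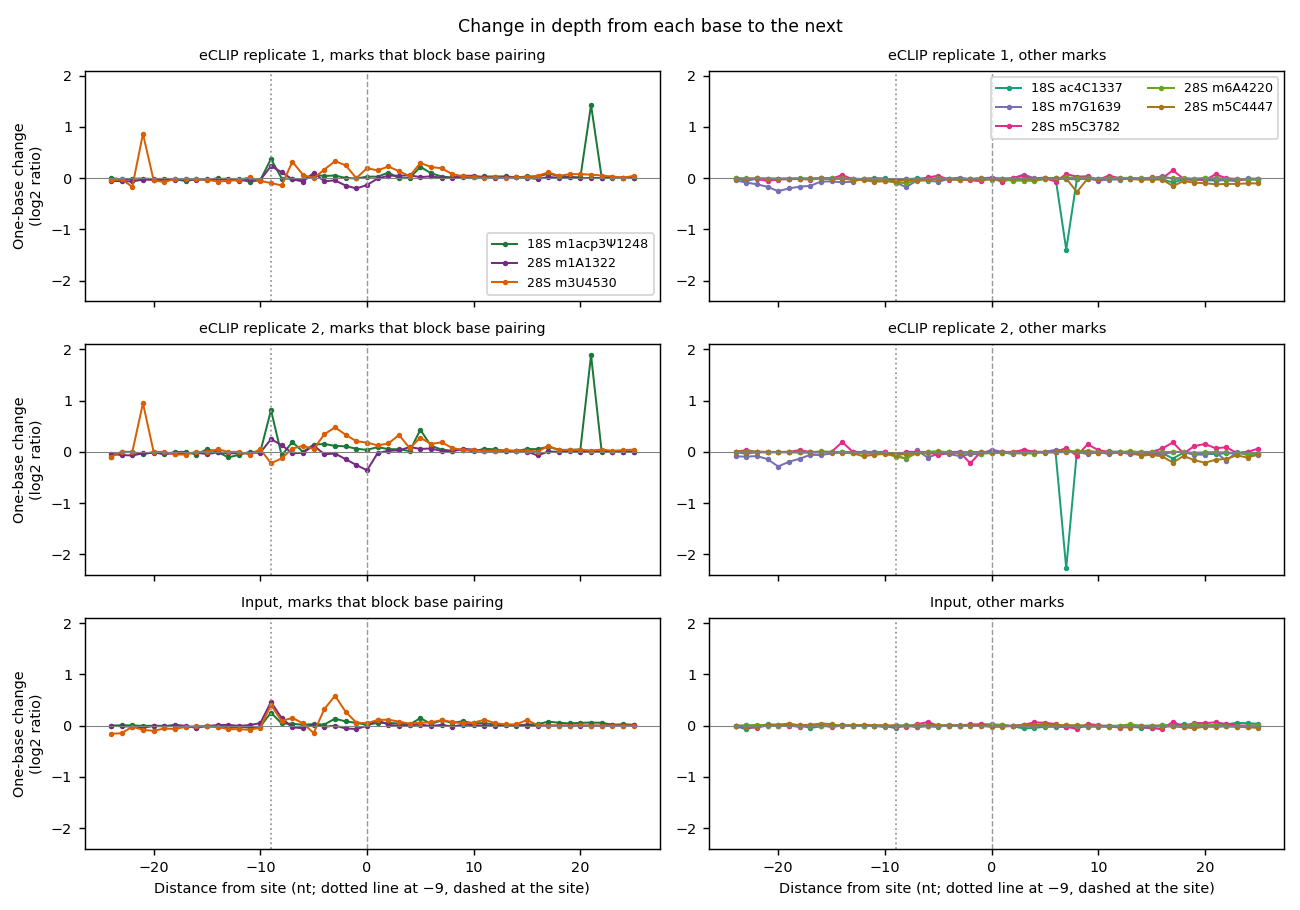
One-base change in depth (log2 of depth at a position to depth one base before, 1 read added) by distance from the modified base in nt, at the 3 blocking marks and the 5 other marks that lie away from the 18S 3′ end, in each library. In Input the 3 blocking marks share a gain at 9 nt 5′ of the base, and the other marks show none of 15% or more.

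In Input, a gain in depth 9 nt 5′ of the base recurred at the 3 blocking marks that lie away from rRNA ends. This distance and the 15% limit were chosen after the values were seen, so the pattern is a description. In Input, depth at that distance was 2373 against 1992 reads one base before at m1acp3Ψ1248 (19.1% more, with 1 read added to each depth). It was 4778 against 3468 reads at m1A1322 (37.8% more) and 1323 against 999 at m3U4530 (32.4% more). It was the one distance at which all 3 marks had such a gain in Input, and for m1acp3Ψ1248 and m1A1322 it was the largest gain of the flank.

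The eCLIP libraries had the same gain at the first 2 of these marks. At m1acp3Ψ1248 depth was 255 against 196 reads in eCLIP replicate 1 and 43 against 24 in eCLIP replicate 2. At m1A1322 it was 2152 against 1826 reads and 1322 against 1112. At m3U4530 there was none, with 74 against 79 and 23 against 27 reads. A gain of 15% or more 5 nt 3′ of the base was shared by as many marks in the eCLIP libraries. There, depth was 365 against 313 and 115 against 85 reads at m1acp3Ψ1248, and 310 against 252 and 148 against 122 at m3U4530. At 9 nt 5′ of the 5 other marks away from the 18S 3′ end, the change was between -6.22% and -1.91% in the eCLIP libraries. In Input it was between -3.68% and 0.80% at that distance.

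Over the whole of these flanks, gains of 15% or more were found at 11 of 150 positions beside blocking marks in each eCLIP library and at 6 in Input. They were found at 0 of 250 positions beside the 5 other marks in each library. Among all 18S and 28S positions the share was 0.836% and 0.951% in the eCLIP libraries and 0.505% in Input. Most of the gains beside blocking marks, 7, 7 and 4 of them, lay in the flank of m3U4530, where eCLIP depth was low and neighbouring positions share reads. In Input each of the 3 gains was followed by a loss one read span later. At m1acp3Ψ1248, 373 reads were lost 75 nt past the gain of 381, and at m1A1322, 1229 past the gain of 1310. At m3U4530 the loss of 452 reads was larger than the gain of 324. Over all 28S positions in Input the match of rises with falls 75 nt on was weak (r = 0.241). In the eCLIP libraries the matching losses were 66 and 21 reads after the gains of 59 and 19 at m1acp3Ψ1248, while at m1A1322 the gains of 326 and 210 were followed by a gain of 227 in replicate 1 and a loss of 15 in replicate 2. Whether reverse transcription, cleavage or alignment places read ends there was not tested, and depth alone does not record where reads start.

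The difference between eCLIP and Input in the step at each site was tested with edgeR's quasi-likelihood test across 7138 rRNA positions, taking the depths on both sides of a position as counts. No position passed the adjusted threshold of 0.05 in either direction (0% and 0% of positions), and 0 of 12 sites did. The smallest adjusted p of any position was 0.0638. At an unadjusted p under 0.05, 1241 positions were higher and 1025 lower in eCLIP, and 5 sites were among the lower. DESeq2, the other tool run, called 1447 positions higher (21.1%) and 1199 lower (17.5%), and of the 9 sites to which it gave an adjusted p it called 5 lower and 0 higher. The edgeR fit had 1 residual degree of freedom, from the pair of eCLIP libraries, and positions closer than a read span share reads.

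All 7 of the other marks had a lower step in both eCLIP libraries than in Input. The estimates of the eCLIP minus Input step were -2.01 at m6A1832 (edgeR adjusted p = 0.0824) and -2.26 at ac4C1842 (edgeR adjusted p = 0.249), where the fall toward the 18S end was steeper in eCLIP. At ac4C1337 the estimate was -0.43 (edgeR adjusted p = 0.0803), and at m5C3782 -0.31, m6A4220 -0.26, m7G1639 -0.17 and m5C4447 -0.15. Among blocking marks it was below 0 at m1A1322 (-0.43, edgeR adjusted p = 0.123) and at both m62A bases (-0.95 and -0.82), and above 0 at m3U4530 (0.63, edgeR adjusted p = 0.179) and m1acp3Ψ1248 (0.14, edgeR adjusted p = 0.778). The eCLIP libraries split at 3 of these: at m1acp3Ψ1248 the step minus that of Input was -0.14 in replicate 1 and 0.45 in replicate 2. At the m62A bases it was -0.83 and -0.70 in replicate 1 but 0.36 and 0.53 in replicate 2, where depth was at or below the floor. The sites DESeq2 called lower were m1A1322, ac4C1337, m6A1832, m5C3782 and m6A4220. The median estimate was -0.43 over blocking marks and -0.31 over the others, against 0.03 over all positions tested.

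With flanks of 25 nt in place of 10, edgeR called 1179 positions higher (16.8%) and 1041 lower (14.8%). Of the 10 sites with complete flanks 1 was then called higher and 6 lower. The site called higher was m1acp3Ψ1248 (0.95, edgeR adjusted p = 0.0258), whose wider flank takes in the block edge at position 1269. The sites called lower included ac4C1842 (-4.52, edgeR adjusted p = 5.73e-11), m6A1832 (-3.11, edgeR adjusted p = 4.23e-08) and ac4C1337 (-1.11, edgeR adjusted p = 5.37e-08). The 3′ side of ac4C1337 takes in the block edge at position 1344, and eCLIP replicate 2 had no reads 3′ of ac4C1842. Each read is counted at every position it covers, so these p-values may be too small. The step at m3U4530 was not called at either width.

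The levels of the flanks are given without a test. Each level is the log2 ratio of the flank's mean depth to the mean depth of its own rRNA in that library. The eCLIP level was far below that of Input at m5C3782, at -4.46 ± 0.62 in eCLIP (SD, n = 2) against -0.18 in Input, and at m3U4530, at -3.51 ± 0.07 (SD, n = 2) against -0.65. It was also lower at m7G1639, with -1.41 and -1.58 against 0.26, and at m5C4447, with -0.92 and -1.58 against 0.14. It was higher in both eCLIP libraries than in Input at ac4C1337, with 1.48 and 2.04 against 0.10, at m6A1832, with 0.00 and -0.91 against -1.61, at ac4C1842, with -0.85 and -1.87 against -2.05, at m1acp3Ψ1248, with 0.00 and 0.22 against -0.72, and by less at m6A4220, with 0.55 and 0.20 against 0.17. The flanks of ac4C1337 and m1acp3Ψ1248 each hold part of the block of eCLIP depth with edges at positions 1269 and 1344. Their higher levels are therefore not separate observations. Neither class lay on one side: blocking and other marks were found among both the higher and the lower flanks. Over the 12 sites the steps of the eCLIP libraries correlated with each other at r = 0.87 and with those of Input at r = 0.92 and r = 0.66, across sites that share rRNAs and in part reads. Without the 4 overlapping sites of the 18S 3′ end (n = 8 sites) these were 0.98, 0.99 and 0.98.

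**Figure D4:**
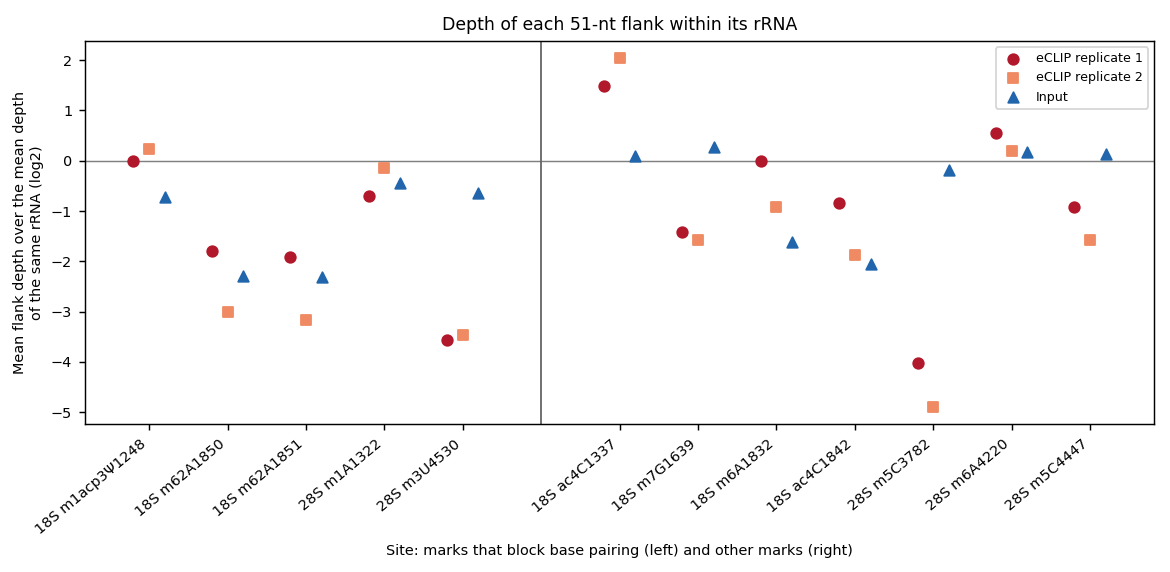
Level of each flank (log2 of its mean depth to the mean depth of its rRNA in the same library) for blocking marks left and other marks right; red circles and orange squares are the eCLIP libraries, blue triangles the Input. The flanks of m5C3782 and m3U4530 lie far lower in eCLIP than in Input, and that of ac4C1337 higher.

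The window test, like that of the steps, had 1 residual degree of freedom and took its spread from the eCLIP pair, since the spread of the single Input library is not measured. In 50-nt windows tested across all rRNAs with edgeR and TMM scaling, eCLIP fell below Input in 51 of 147 windows (34.7%) and rose above it in 5 (3.4%). Of the 10 windows that hold a site, 5 were called lower and 0 higher. This is no more than a count over 10 windows, beside which lower calls were common among all windows. Mean depths in the window of m5C3782 were 206.4 and 40.5 reads in the eCLIP libraries, against 5352 in Input (log2 fold change -3.44, edgeR adjusted p = 6.47e-10). In the window of m7G1639 they were 277.4 and 65.3 against 7774 reads (log2 fold change -3.44, edgeR adjusted p = 3.75e-11). The windows of m3U4530 (-2.15, edgeR adjusted p = 0.000122), m1acp3Ψ1248 (-2.03, edgeR adjusted p = 0.00039) and m62A1851 (-5.18, edgeR adjusted p = 6.71e-12) were lower too. In the last of these eCLIP replicate 2 had no reads, and DESeq2 gave an adjusted p of 0.345. The windows of ac4C1337, m1A1322, m6A4220, m5C4447 and the one shared by m6A1832, ac4C1842 and m62A1850 passed in neither direction. Of these, only that of m6A4220 was called by DESeq2 (higher, 1.14, DESeq2 adjusted p = 2.80e-06). Among all 147 windows DESeq2 called 52 higher and 56 lower, so such calls were common. Window values are relative to all rRNAs, and the mean depth of 18S was 431.0 and 122.3 reads in the eCLIP libraries against 6210 in Input, while that of 28S was 3302 and 1320 against 6117. Levels are relative to 1 rRNA and cover other positions than the windows. At m1acp3Ψ1248 and m6A1832 the window value was below 0 while the flank level was higher in eCLIP than in Input.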

How the data were processed

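The authors deposited 1 table of read counts for each position of 4 rRNAs in 3 libraries. Per the file headers the columns are the first and second immunoprecipitate and Input, and those of the immunoprecipitates were taken as the eCLIP replicates of the same number. STAR and hg19 are named in the submitters' processing notes. How depth was counted, capped or cleared of duplicates is not given in the sources. Counts were used as deposited, with no scaling within a library. All value columns were used.

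The members and lists were chosen with earlier results of these data known. All 12 sites are named, with the largest one-base rise and fall of a flank. The 15% limit, the distance of 9 nt and the alternative without sites at 3 reads or fewer on both sides were chosen after the values were seen.

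Steps used flanks of 10 nt and 1 added read, computed with Python 3.11.15. edgeR 4.0.16 (R 4.3.3), with Benjamini-Hochberg adjustment at 0.05, tested steps with the 5′ and 3′ depths as counts, and windows of 50 nt with TMM scaling. DESeq2 1.42.0 was an alternative. The edgeR fits of steps and of windows were tested on simulated data. For steps, 100% of 4-fold changes and 0.0807% of unchanged positions were called. For windows, 68% of 4-fold rises, 73% of 4-fold falls and 0.888% of unchanged windows were called. The simulated positions and windows were independent and had a common dispersion, unlike the data, so these rates need not hold for the data. Reads are counted at each position they cover, so neighbouring values are not independent. Whether the eCLIP replicates are separate cultures is not stated, and p-values cover the spread between these libraries alone, which may be technical. Positions count from 1 along each rRNA. In a GRCh38 gene list all 5 genes of 18S rRNA have the deposited 18S length of 1869 nt, and 1 of 5 of 28S, RNA28SN5, has its 28S length of 5070 nt. No rRNA sequence was used here.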

Additional observations from a re-analysis of the deposited data

How the results depend on the processing

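The difference of class medians (blocking minus other) depended on the setting. In eCLIP replicate 1 it was 0.0385 as reported, -0.187 with flanks of 5 nt, 0.793 with 25 nt, 0.290 with 3 nt left out beside the base, 0.416 with the m62A pair as 1 site, 0.710 without the 4 sites of the 18S 3′ end, -0.506 on 18S alone, 0.947 on 28S alone and 0.460 with means. In eCLIP replicate 2 it was -0.271 as reported, and under the same settings 0.114, 0.588, 0.0538, 0.507, 1.28, 1.18, 0.972 and 1.47, with 0.0125 for the one-base step, 0.145 with 10 added reads and 1.284 without sites at the floor. In Input it was 0.0802 as reported, 0.448 with 25 nt, 0.365 with the pair as 1 site, 0.624 without the 4 sites, -0.808 on 18S and 0.676 on 28S. Leaving out 1 site at a time gave -0.689 to 0.416, -0.277 to 0.507 and -0.455 to 0.365, in that library order. The difference was above 0 in every library with 25 nt, with 3 nt left out, for the one-base step and with 10 added reads. The same held with the pair as 1 site, without the 4 sites, on 28S alone, with means and without sites at the floor. That last setting left out sites in eCLIP replicate 2 alone. The difference was below 0 in eCLIP replicate 1 with 5 nt, and in eCLIP replicate 1 and Input on 18S alone.

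The step test called 0 positions higher and 0 lower as reported, 22 and 12 with 5 nt, 1179 and 1041 with 25 nt, 1447 and 1199 with DESeq2 and 3 and 2 over every 21st position. Windows higher numbered 5 as reported, 1 with library totals and 52 with DESeq2. Library totals moved the median log2 fold change of all windows to -0.58, against -0.16 with TMM and 0.01 with DESeq2 size factors. Of 31 results for single sites under the alternatives, 19 stayed short of the threshold and 12 passed it. One of the 31 had the other sign. No site passed as reported, so none could become weaker, and these counts do not measure how stable the calls are. All 12 came from DESeq2 or flanks of 25 nt, which called large shares of all positions (21.1% and 17.5%, and 16.8% and 14.8%, higher and lower). Leaving out 1 eCLIP library leaves no residual degrees of freedom, so it gives values and no test. No paired analysis was possible because with a single Input library the groups share fewer than 2 replicate numbers. Depth limits eCLIP replicate 2 most, with 0 reads past m62A1850. The causes of these shifts were not tested.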
